A study of Rattus norvegicus with 5 samples.

Results

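Lyz2, Cd14, Itgam and Cybb are 4 genes that blood monocytes, macrophages and granulocytes use to recognise, hold and kill microbes, and they serve as identity genes of the myeloid lineage. Their levels were read in a rat blood fraction rich in myeloid-derived suppressor cells (MDSCs), immature myeloid cells that can restrain T cells. The genes were taken by name: each is the single gene symbol of 1 probe in the platform's annotation, which gives 4 probes of the 26856 with values on all arrays. The cells came from LEW.1A rats (MHC haplotype RT1a), 100 days after transplantation of a kidney. In the tolerant group, with 3 arrays, the recipients carried a LEW.1W kidney (haplotype RT1u, mismatched for MHC class I and II, from donors 8 to 12 weeks old) and had received JJ319, an antibody against CD28, the costimulatory receptor of T cells. In the syngeneic group, with 2 arrays, LEW.1A rats carried a LEW.1A kidney, which matches the recipient; the labels name no antibody for them. Recipients of allografts lost both of their own kidneys on day 7 after the operation, and the labels state this for allografts alone. Neither the recipients' age nor the antibody dose is given in the sources used here. All samples were sorted alike: after lysis of erythrocytes, beads took out MHC class II+ and CD3+ cells, and CD80+ or CD86+ cells were kept. The series' design text speaks of 3 recipients a group, and no label ties an array to 1 animal, so the spread between arrays may be technical.

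Each of the 4 products has a distinct task. Lyz2 encodes lysozyme, which cleaves the peptidoglycan of bacterial walls and is stored in granules and secreted. CD14 binds lipopolysaccharide and passes it to the receptor pair TLR4 and MD-2 (Ly96). Itgam encodes CD11b, the alpha chain that pairs with CD18 (Itgb2) to form complement receptor 3, and CD11b is one of the surface antigens by which rodent MDSCs are defined. Cybb encodes gp91phox (NOX2), the catalytic subunit of the phagocyte NADPH oxidase, which makes superoxide together with p22phox (Cyba) in the membrane and with p47phox (Ncf1), p40phox (Ncf4) and a Rac GTPase among its partners from the cytosol. Transcription of myeloid genes, CYBB and ITGAM in human cells among them, depends on PU.1 (gene Spi1) and on factors of the C/EBP family.

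All 4 genes had a higher mean in tolerant than in syngeneic cells, by 0.96 to 2.05 on the log2 scale, and none of these differences passed the test. They formed 2 pairs. After quantile normalization, Lyz2 and Cd14 were higher on each tolerant array than on either syngeneic array. Itgam and Cybb owed their lower syngeneic mean to 1 array, syngeneic 2, on which both lay at background. Without that array the differences of Itgam and Cybb were -0.35 and -0.44. With all arrays, and the signal on syngeneic 2 counted no lower than background, they were at least 0.68 and 1.51. Since RNA was taken from a mixed cell preparation, fewer cells of a type and less RNA per cell cannot be told apart.

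Some facts of the arrays bear on these values. The deposited log2 values had been quantile normalized, and the median raw signal ran from 563 to 798. As background level of each array served the 95th percentile over 464 probes for olfactory receptors, which blood should not express; it was log2 11.20 on tolerant 1 and 10.71 to 10.80 on the other arrays. Between 22.6% and 27.2% of probes lay above it. Syngeneic 2 stood apart: its correlation with the other arrays was 0.83 to 0.85 over all probes, and the others correlated at 0.88 to 0.92 with each other. The quality of that array and of its RNA was not tested. Of the antigens used in the sort, Cd80 was at background on all arrays and Cd86 was above it on 2 tolerant arrays and 1 syngeneic array. Cd3d, a chain of the depleted CD3 complex, was above background on both syngeneic arrays and 1 tolerant array.

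The starts of the 4 genes are shown because PU.1 sites share the core GAGGAA. Whether PU.1 had a part in the values of these genes was not tested. The windows are RefSeq sequences of the build GRCr8, each 300 bases long, 250 before and 50 after the start site that the table uses, read 5′ to 3′ on the gene's strand. Capitals mark GAGGAA, or TTCCTC where the core lies on the opposite strand.
Lyz2: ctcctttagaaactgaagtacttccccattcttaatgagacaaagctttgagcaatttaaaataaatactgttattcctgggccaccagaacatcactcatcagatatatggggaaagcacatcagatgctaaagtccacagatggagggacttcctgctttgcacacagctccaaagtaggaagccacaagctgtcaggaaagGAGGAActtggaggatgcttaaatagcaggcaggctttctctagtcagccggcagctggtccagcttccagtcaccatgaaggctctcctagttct
Cd14: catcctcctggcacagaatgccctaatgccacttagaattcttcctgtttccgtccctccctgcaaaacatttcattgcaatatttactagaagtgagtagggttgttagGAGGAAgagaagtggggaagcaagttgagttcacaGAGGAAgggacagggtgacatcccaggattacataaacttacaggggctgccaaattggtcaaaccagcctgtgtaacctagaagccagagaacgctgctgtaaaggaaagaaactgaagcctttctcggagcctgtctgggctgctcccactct
Itgam: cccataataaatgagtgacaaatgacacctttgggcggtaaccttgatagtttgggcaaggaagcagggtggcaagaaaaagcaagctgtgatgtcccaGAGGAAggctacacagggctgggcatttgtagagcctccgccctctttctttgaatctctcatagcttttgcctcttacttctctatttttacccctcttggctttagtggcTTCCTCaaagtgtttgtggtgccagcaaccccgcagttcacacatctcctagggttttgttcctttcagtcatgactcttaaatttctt
Cybb: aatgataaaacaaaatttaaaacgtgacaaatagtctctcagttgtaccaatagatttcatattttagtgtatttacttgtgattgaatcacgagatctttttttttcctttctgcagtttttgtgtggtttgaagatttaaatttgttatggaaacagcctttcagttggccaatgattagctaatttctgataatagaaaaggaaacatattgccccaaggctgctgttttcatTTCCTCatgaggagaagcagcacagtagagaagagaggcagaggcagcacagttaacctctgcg
The Lyz2 window is chr7:54797962-54798261 and the Cd14 window chr18:28611109-28611408, both on the minus strand. The Itgam window is chr1:192089342-192089641 on the plus strand, and the Cybb window is chrX:16065016-16065315 on the minus strand. The Cd14 window lies within the span of the RefSeq gene record, which includes a longer transcript. The records of Lyz2 and Itgam also begin upstream of the start sites used, so their windows lie partly within them.

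GAGGAA was found on 1 of the strands in all 4 windows, against 27.6% of the 33469 promoter windows of the same length. Its first base, counted along the gene's strand, lay 46 bases before the start of Lyz2, 140 and 105 bases before that of Cd14, 151 and 39 before that of Itgam and 14 before that of Cybb. The copy at 39 in Itgam and that in Cybb are on the opposite strand. Cd14 and Itgam thus hold 2 copies each, as 4.83% of all windows do at least. The copy in Lyz2, both copies in Cd14 and the copy at 39 in Itgam lie within the span of the gene record. TTGCNNAA, a form of the C/EBP site, was in the windows of Lyz2 and Itgam and in 10.6% of all windows. TGANTCA, the AP-1 site, was in that of Cybb and in 7.33% of all. Both strands were searched for each motif, and no match overlapped that of another motif. A match of letters is not a site of binding, and the genes were not chosen at random.

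Lyz2 gave a signal far above background on all arrays. In log2 units it was 20.74 on tolerant 1, 20.48 on tolerant 2 and 19.75 on tolerant 3, against 19.50 on syngeneic 1 and 19.24 on syngeneic 2. The groups did not overlap, but the gap between the lowest tolerant and the highest syngeneic array was 0.25, smaller than the range of 1.00 within the tolerant group. The means were 20.33 ± 0.52 (SD, n = 3) and 19.37 ± 0.18 (SD, n = 2). The difference of 0.96 (SE 0.46, 95% confidence interval -0.17 to 2.08), or 1.94-fold, did not pass (limma, Benjamini-Hochberg adjusted p = 0.907). The difference stayed positive without each array in turn, at 0.75 to 1.25. On the raw linear scale the signals were 1345236, 1434344 and 924310 on the tolerant arrays against 830335 and 828376 on the syngeneic ones. Scaled to the array's median raw signal, 757 on tolerant 3 and 676 on syngeneic 2, these 2 arrays were about level. Under that scaling the groups were thus not clearly apart. Lyc2, a second lysozyme gene next to Lyz2 in the rat genome, has no probe named for it here, and how far the Lyz2 probe also reads its transcript is unknown.

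Cd14 followed with the smallest spread among tolerant arrays. Its log2 signal was 15.85, 15.44 and 15.75 on the tolerant arrays and 15.09 and 13.84 on the syngeneic ones. Every array was above background, by at least 3.04. Again the groups did not overlap, with a gap of 0.36 against a range of 0.41 within the tolerant and 1.25 within the syngeneic group. This held for the normalized values only. On the raw linear scale the groups overlapped, with 31968, 41404 and 63529 on the tolerant arrays against 38146 and 18757 on the syngeneic ones. The means were 15.68 ± 0.21 (SD, n = 3) and 14.47 ± 0.88 (SD, n = 2). The difference was 1.22 (SE 0.51, 95% confidence interval -0.01 to 2.44), or 2.32-fold, and did not pass (limma, adjusted p = 0.907). Syngeneic 2 carried much of it: the difference was 0.59 without that array and 1.84 without syngeneic 1.

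Groups that do not overlap, with tolerant higher, were seen for 2 of the 4 genes and for 9.74% of all 13428 probes tested, and groups apart with tolerant lower for 0 of the 4 and 10.4%. A difference above 0 was seen for 4 of 4 genes and 50.3% of tested probes, and without syngeneic 2 for 2 of 4 and 50.6%. All 4 genes passed the filter on low signal. Of the 4, 0 passed an adjusted p of 0.05 in limma, and 0 had an unadjusted p under 0.05. Over all tested probes 0.0447% passed, every one with the lower level in tolerant arrays (0% higher), and 5.37% had an unadjusted p under 0.05 (1.99% higher and 3.38% lower). The count behind that share, 6 probes, was 0 without any 1 of the arrays other than syngeneic 1 and 91 without syngeneic 1.

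**Figure D1:**
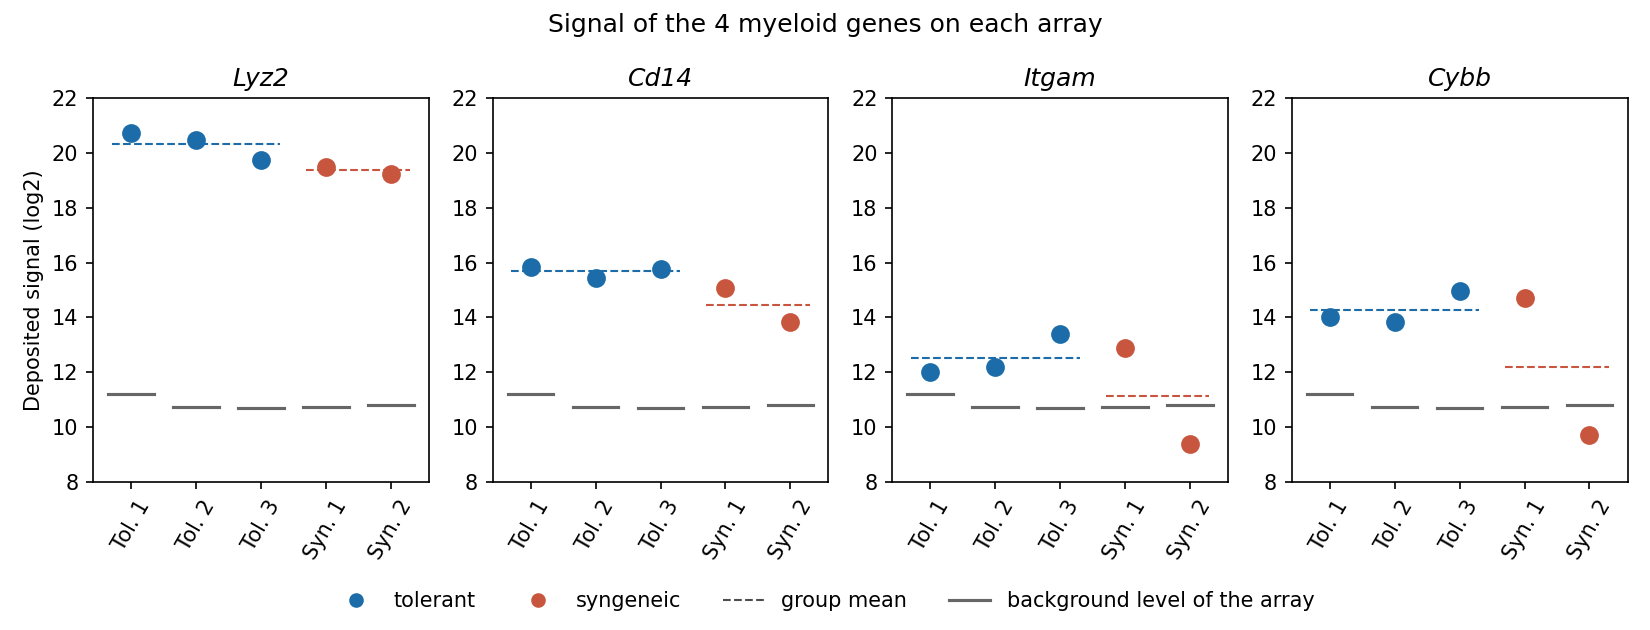
Log2 signal of Lyz2, Cd14, Itgam and Cybb on each array; points are single arrays (Tol., tolerant; Syn., syngeneic), dashed lines are group means and short grey lines the background level of each array. Lyz2 and Cd14 are above background on all arrays with tolerant points higher, and Itgam and Cybb drop below background on syngeneic 2, at 9.38 and 9.73.

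Itgam was the faintest of the 4 relative to background. Its log2 signal was 12.00, 12.18 and 13.38 on the tolerant arrays and 12.87 and 9.38 on the syngeneic ones. Syngeneic 1 thus lay within the tolerant range, while syngeneic 2 was 1.42 below its background level, so that the latter value is no more than an upper bound on the signal. The means were 12.52 ± 0.75 (SD, n = 3) and 11.13 ± 2.47 (SD, n = 2), and the difference of 1.39 (SE 1.05, 95% confidence interval -1.17 to 3.95) did not pass (limma, adjusted p = 0.907). The difference is partly measured against background, and counted down to the background level it was at least 0.68. It turned to -0.35 without syngeneic 2. Without syngeneic 1 only a bound was left, with Itgam at least 3.28-fold higher in the tolerant arrays. Itgax and Itgad, which code for related alpha chains, are the next genes beside Itgam; Itgax has no named probe here, and Itgad was at background on all arrays.

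Cybb showed the same split, wider. Its log2 signal was 14.00, 13.82 and 14.97 on the tolerant arrays and 14.70 and 9.73 on the syngeneic ones. Only tolerant 3 was above syngeneic 1, and syngeneic 2 was 1.07 below background. In raw linear signal, Cybb was at 29468 on syngeneic 1 and 870 on syngeneic 2, against 8270 to 36843 on the tolerant arrays. The means were 14.26 ± 0.62 (SD, n = 3) and 12.21 ± 3.51 (SD, n = 2). The difference of 2.05 (SE 1.38, 95% confidence interval -1.30 to 5.40) did not pass (limma, adjusted p = 0.907). This difference too is partly measured against background, and counted down to the background level it was at least 1.51. Without syngeneic 2 it was -0.44 (95% confidence interval -2.05 to 1.18). Without syngeneic 1 only a bound was left here too, with Cybb at least 11-fold higher in the tolerant arrays than on 1 syngeneic array.

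**Figure D2:**
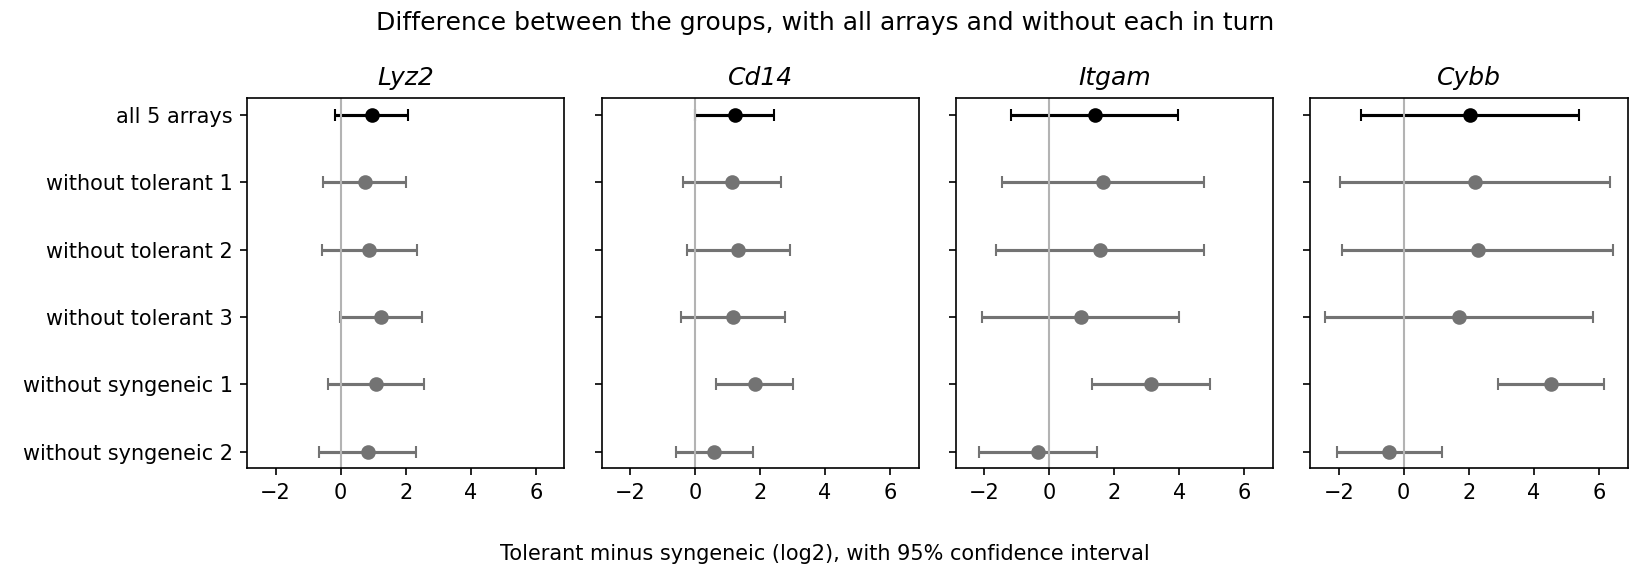
Difference between tolerant and syngeneic arrays (log2, points) with the 95% confidence interval from limma (bars), for all 5 arrays (black) and without each array in turn (grey). The points of Itgam and Cybb move from 1.39 and 2.05 to -0.35 and -0.44 without syngeneic 2, and those of Lyz2 and Cd14 stay above 0. Without syngeneic 1, the points of Itgam and Cybb are set against a signal below background and show only a lower bound. With all 5 arrays they rest partly on that signal, and show differences of at least 0.68 and 1.51.

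The gap between the syngeneic arrays, syngeneic 1 minus syngeneic 2, was 0.26 for Lyz2 and 1.25 for Cd14 on the log2 scale. For Itgam and Cybb, which were below background on syngeneic 2, it was at least 2.07 and 3.89, counted down to the background level of that array. Over all tested probes the median gap was -0.12. All 4 genes exceeded background on the other 4 arrays, and 2 of them, Itgam and Cybb, did not on syngeneic 2. Among all probes, 5058 exceeded it on those 4 arrays, and 599 of these (11.8%) did not on syngeneic 2. The same share was 9.68% for tolerant 1, 0.845% for tolerant 2, 1.24% for tolerant 3 and 1.35% for syngeneic 1. These counts were chosen after the values had been seen.

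**Figure D3:**
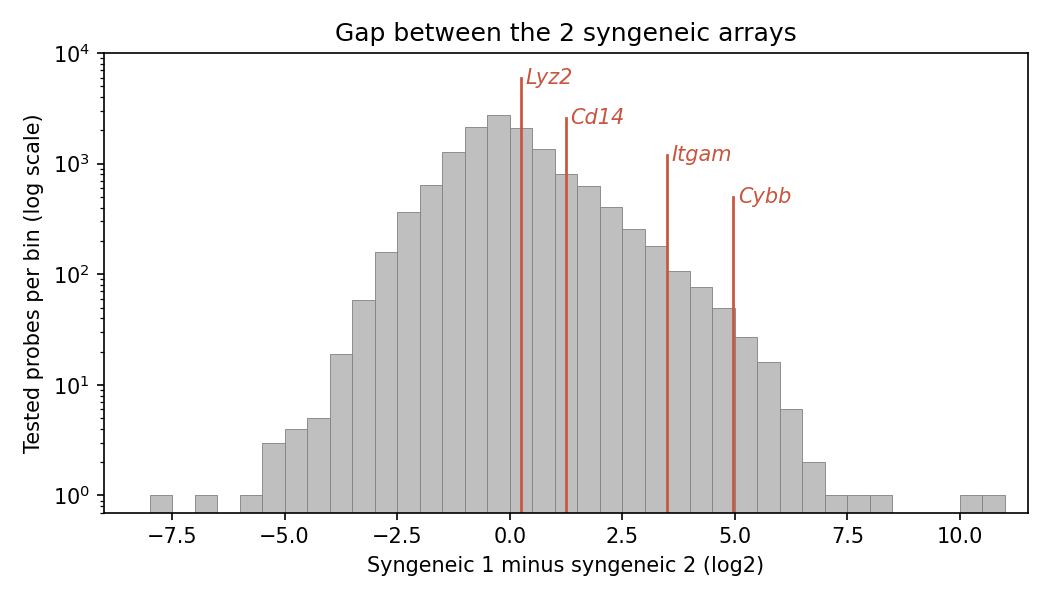
Number of tested probes (log axis) by the gap between syngeneic 1 and syngeneic 2 (log2, bins of 0.5), with the 4 genes as red lines. Lyz2 lies near the centre at 0.26, and Itgam and Cybb lie in the right tail at 3.49 and 4.97, positions that rest on syngeneic 2 values below background and show only gaps of at least 2.07 and 3.89.

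Of 17 genes of lipopolysaccharide recognition 5 have a named probe and 4 were tested, Cd14 included. Cd14 and Tlr2 were higher and Lbp and Myd88 lower, with a median of 0.38 (-0.03 without syngeneic 2); the median of all tested probes was 0.00. Tlr4, the signalling receptor, was at background on all arrays, and Ly96 has no named probe. Tlr2, the receptor for bacterial lipoproteins, for which CD14 is also a coreceptor, was at 12.77, 11.31 and 13.10 on the tolerant arrays and 13.31 and 9.60 on the syngeneic ones. It therefore followed Itgam and Cybb, with syngeneic 1 above all tolerant arrays and syngeneic 2 at background. Its difference of 0.94 (SE 1.14) became -0.91 without syngeneic 2. Myd88, the adaptor of both receptors, went the other way on syngeneic 2, with 13.34 to 14.02 on the tolerant arrays and 13.95 and 14.85 on the syngeneic ones (difference -0.71, SE 0.47). Lbp, the plasma protein that hands lipopolysaccharide to CD14 and is made mainly in liver, was near background (difference -0.17, SE 0.49, above background on 2 tolerant arrays and 1 syngeneic array).

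Of the beta2 integrin list 7 of 12 genes have a named probe and 6 were tested, Itgam included, with 5 higher and 1 lower and a median of 0.65. Itgb2, the beta chain that CD11b needs to reach the surface, and Itgal have no named probe. C3, the complement protein whose fragment iC3b is a ligand of CD11b, was 14.26, 14.37 and 14.61 in tolerant and 14.02 and 13.36 in syngeneic cells, a difference of 0.72 (SE 0.42). Icam1, another ligand, differed by 0.58 (SE 0.43), and Icam2 by 0.11 (SE 0.38). Cyth1, a regulator of integrin adhesion, was above background on only 1 tolerant array. None of the 6 passed, and without syngeneic 2 the median was 0.21.

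The other oxidase subunits measured stayed well above background on syngeneic 2. Cyba, the membrane partner without which gp91phox is unstable, was at 17.96, 17.64 and 17.60 on the tolerant arrays and 17.47 and 16.61 on the syngeneic ones, a difference of 0.69 (SE 0.45), and its groups did not overlap. Ncf1 was at 15.68, 16.13 and 16.00 on the tolerant arrays against 15.62 and 15.54 on the syngeneic ones, a difference of 0.36 (SE 0.39), again without overlap. Rac2, the Rac GTPase of blood cells, was at 17.13 to 17.34 on the tolerant arrays and 17.28 and 17.75 on the syngeneic ones, with a difference of -0.27 (SE 0.40). Syngeneic 2 was thus the lowest array for Cyba and Ncf1 and the highest for Rac2. Over the oxidase list, with 10 of 14 genes named and 8 tested, 4 were higher and 4 lower and the median was 0.04. Among the 4 lower were Sod1 (-0.27) and Cat (-0.37), which are not oxidase subunits, and among the 4 higher was Nox1. Over the 7 genes above background on at least 2 arrays the median was -0.27. Cybb was the 1 gene of the 7 in that list that lay above background on the other arrays and at background on syngeneic 2. Nox1 and Nox4, paralogs of Cybb used mainly in other tissues, were at background on all arrays.

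Of the 16 antimicrobial proteins listed with lysozyme, 7 have a named probe and 2 were tested. The other one tested was Pglyrp1, a granule protein of neutrophils that binds peptidoglycan. Its signal was 10.51, 10.80 and 10.57 on the tolerant arrays, of which 1 was above background, and 13.52 and 15.34 on the syngeneic ones. It differed by -3.80 (SE 0.61; limma, adjusted p = 0.257), the opposite sign to Lyz2.

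Spi1, which encodes PU.1, had the pattern of Itgam and Cybb. It was at 14.42, 13.53 and 14.23 on the tolerant arrays and at 14.22 and 10.20 on the syngeneic ones, at background on syngeneic 2. Its difference of 1.85 (SE 1.13) became -0.16 without that array. Cebpa, a regulator of granulocyte and monocyte precursors, was at 11.43 to 13.27 on the tolerant arrays and at 13.33 and 9.09 on the syngeneic ones, and its difference of 1.29 (SE 1.26) became -0.83. Other C/EBP genes did not drop to background there. Cebpb, needed for suppressor cell function in mice, was at 17.24 to 17.85 on the tolerant arrays and 17.36 and 16.71 on the syngeneic ones (difference 0.54, SE 0.44). Cebpd was highest on syngeneic 2, at 16.36. Gfi1, a repressor that favours the neutrophil fate, was at background on all tolerant arrays and at 12.43 and 12.58 on the syngeneic ones, which makes it at least 3.10-fold lower in the tolerant group, and did not pass (limma, adjusted p = 0.446). Maf, with a difference of -1.80 (SE 0.81), was above background on 1 tolerant array. Of 10 regulators tested 7 were higher and 3 lower; the median of 0.40 became -0.25 without syngeneic 2.

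Monocyte and macrophage markers were mixed, and most did not drop to background on syngeneic 2. With 14 of 22 genes named, 13 were tested, of which 9 were higher, 4 were lower and none passed, and the median was 0.23 (0.12 without syngeneic 2). Of the 4 lower, Cx3cr1 had the largest difference, at -1.11 (SE 0.61). It was above background on 1 tolerant array and both syngeneic arrays. Ccr2, the receptor that draws monocytes from the marrow, was at 12.51, 12.04 and 13.54 on the tolerant arrays and 13.78 and 8.08 on the syngeneic ones. It was the 1 gene of the 11 above background on the other arrays to lie at background on syngeneic 2. Over all probes that share was 11.8%. Nr4a1, a nuclear receptor of patrolling monocytes, was at 15.07 to 16.10 on the tolerant arrays and at 15.04 and 11.20 on the syngeneic ones (difference 2.42, SE 1.10; 0.50 without syngeneic 2). Sirpa, the receptor for CD47, was at 12.80 to 13.82 on the tolerant arrays and at 12.86 and 11.03 on the syngeneic ones (difference 1.41, SE 0.66). By contrast Ctss, a lysosomal protease, and Adgre1 (F4/80) differed little between the syngeneic arrays, at 17.68 and 17.47, and at 14.31 and 14.39. Adgre1 was higher on every tolerant array, at 14.43 to 15.31, with a difference of 0.61 (SE 0.44). The brighter of 2 Cd36 probes was at 16.43 and 16.44 on the syngeneic arrays, whereas the fainter was at 14.12 on syngeneic 1 and at background on syngeneic 2, so the probes of 1 gene disagreed there. Csf1r and Cd68, defining markers of the lineage, have no named probe here. Among complement and Fc receptors 8 were tested, 5 higher and 3 lower, with a median of 0.09. Tyrobp, an adaptor of myeloid receptors, was at 19.95 to 20.30 on the tolerant arrays and 20.07 and 19.66 on the syngeneic ones. Fcgr3a differed by -0.82 (SE 0.45). Cd46, a regulator of complement, was at background on all tolerant arrays and above it on 1 syngeneic array only, so no fold is given.

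**Figure D4:**
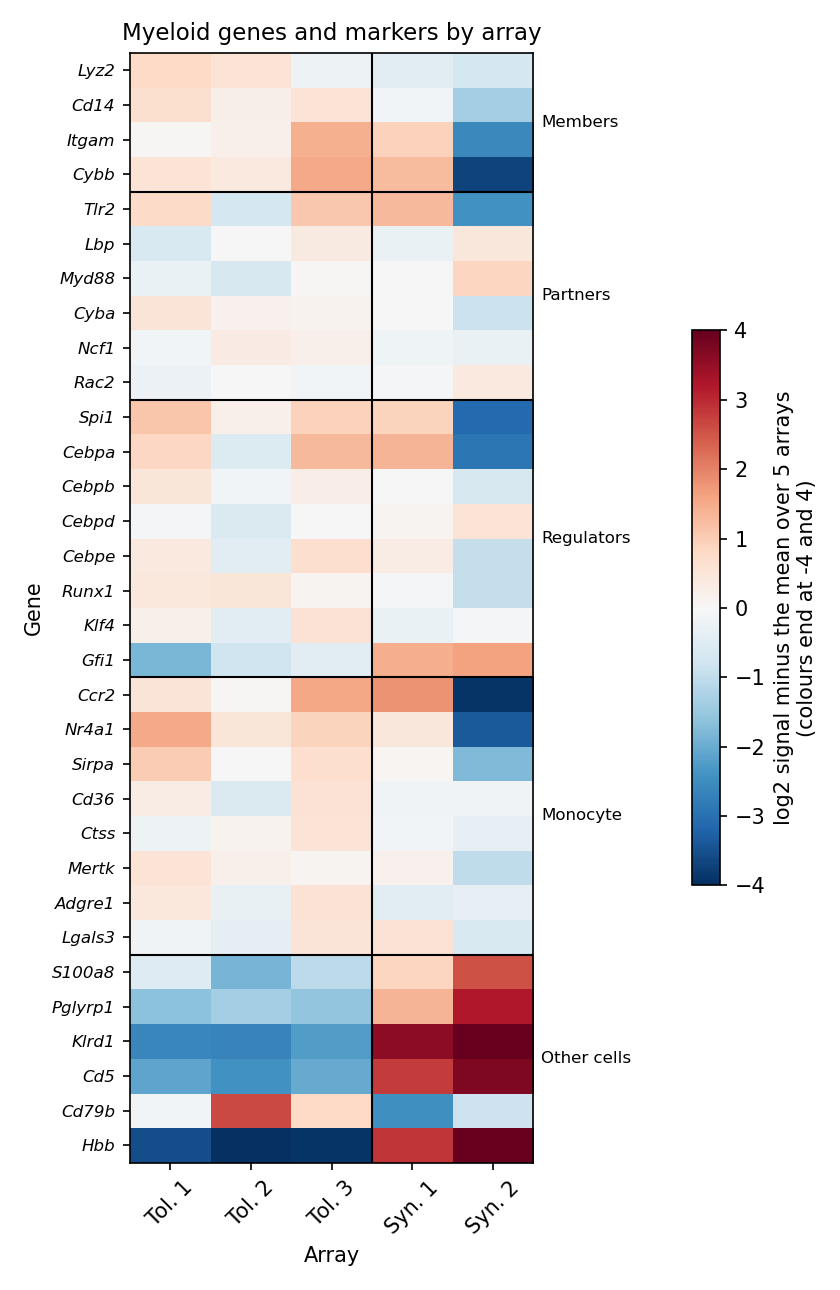
Log2 signal of each gene on each array minus its mean over the 5 arrays (colour), for the 4 genes, partners of their products, transcription regulators, monocyte markers and 1 or 2 markers of other blood cells. All 4 genes are lowest on syngeneic 2, as are Tlr2, Spi1, Cebpa, Ccr2 and Nr4a1. The same holds for others shown, among them Cyba, Ncf1, Cebpb, Sirpa and Ctss. Hbb and Pglyrp1 are highest there, as are S100a8, Klrd1, Cd5, Myd88, Rac2, Cebpd and others.

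Markers of some other cell types moved with the groups, and their part in the 4 differences was not tested. The log2 of the summed signal of the 11 neutrophil markers with a named probe was 15.44 to 17.44 on the tolerant arrays and 19.68 and 21.16 on the syngeneic ones, with 2 to 3 of them above background on each tolerant array, 6 on syngeneic 1 and 5 on syngeneic 2. All 8 tested were lower in tolerant cells. S100a8, a defining marker that monocytes also express, was at 15.20 to 16.54 against 17.92 and 19.59, and Il1r2 was at least 3.61-fold lower; Csf3r has no named probe. For 14 NK cell markers the summed signal was 14.66 to 15.18 against 17.90 and 17.56. All 12 tested were lower in tolerant cells, though Klrk1 hardly differed (-0.04). Klrd1 and Klre1 fell by at least 16.5-fold and 6.80-fold (limma, adjusted p = 0.036 and 0.040). For 14 T cell markers the summed signal was 14.09 to 14.67 against 17.15 and 17.21. Of 13 tested, 11 were lower and 2 higher, Cd4 by 0.22 and Icos, at background on all arrays, by 0.57. Cd5 fell by at least 9.08-fold (limma, adjusted p = 0.040), while Lat, at least 13.7-fold lower, did not pass. The groups overlapped for Cd8a, at 14.66 on syngeneic 1 and 9.68 on syngeneic 2. For 6 erythroid markers the summed signal was 11.48 to 12.46 against 15.59 and 21.16. Hbb was at 14.49 on syngeneic 1 and 20.30 on syngeneic 2 and at background on tolerant arrays, and Alas2 was at background on all.

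The monocyte list itself overlapped, with a summed signal of 19.31 to 19.93 on the tolerant arrays and 19.63 and 19.01 on the syngeneic ones, and 11 to 13 of 14 genes above background on tolerant and 12 on each syngeneic array. B cell markers had only 2 named probes, Cd79b and Fcer2, with a summed signal of 14.78 to 17.52 on tolerant and 12.52 and 14.03 on syngeneic arrays. Platelet markers (4 probes) summed to 10.75 to 11.04 and to 11.32 and 13.47. Neither Pf4 nor Itga2b has a named probe, and Nrgn, the list's largest difference, was above background only on syngeneic 2. Dendritic cell markers (5 probes) summed to 14.17 to 15.51 and to 14.74 and 14.23. Of 4 tested, 3 were higher and 1, Batf3, lower, with a median of 0.41 (-0.45 without syngeneic 2). Batf3 was above background only on syngeneic 1. Eosinophil, basophil and mast cell markers (9 probes) summed to 12.06 to 12.61 and to 12.47 and 13.55, with 0 above background on any array but syngeneic 2, where Hdc and Mcpt1 were. Such sums are set by their brightest probes.

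Among themselves the 4 genes were closest in pairs. Likeness was measured as the root mean square difference between log2 profiles, each centred on its own mean over the 5 arrays, so that 0 is an identical profile. It was 0.49 for Lyz2 with Cd14 and 0.58 for Itgam with Cybb, and 0.86 to 1.73 for the mixed pairs. Both pairs were less alike than each gene and its closest named probes below, at 0.08 to 0.26. The value of Itgam with Cybb rests in part on syngeneic 2, where both were below background. Among 3486 other named and tested probes, those closest to Cybb were Xdh, xanthine dehydrogenase, which can also yield superoxide (0.13), Fibp (0.24) and the deacetylase Sirt2 (0.26). All 3 were at background on syngeneic 2 and above it elsewhere. Those closest to Itgam were Vdac2, a channel of the outer mitochondrial membrane (0.12), the dynactin subunit Dctn2 (0.17) and the lysosomal ceramidase Asah1 (0.18), with the same pattern. Those closest to Cd14 were the lymphotoxin beta receptor Ltbr (0.08), the receptor kinase Grk2 (0.12) and the nuclear receptor Nr2f6 (0.12), all above background on every array. Those closest to Lyz2 were Acvrl1 (0.14), Ddx25 (0.16) and Chrnb3 (0.16). Acvrl1 and Ddx25 were at background on all arrays and Chrnb3 on all but 2, so a profile as shallow as that of Lyz2 was also found among probes with no measured signal. With 5 arrays and this many probes close profiles are easily found, and these are given as a description.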

How the data were processed

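Per the labels' protocols, amplified RNA of each sample was hybridised to a 1-colour chemiluminescent oligonucleotide array from Applied Biosystems that covers the rat genome. The raw table deposited by the authors holds 1 linear intensity per probe and array, not normalized between arrays. The log2 values deposited in the series matrix were quantile normalized: they differ by at most 0.000102 from log2 of the raw intensities after quantile normalization. The sources used here give no background subtraction, detection flag or batch label.

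The deposited log2 values were floored at their 10th percentile (8.29). The test covered the 13428 probes whose mean reached the median over probes (9.40), with limma 3.58.1 under R 4.3.3 (no covariates; prior degrees of freedom 3.19), with Benjamini-Hochberg adjustment over all of them. Group means and per-array values are without the floor. The tests were checked on simulated data with independent noise, in which no array stood apart as syngeneic 2 does. That check therefore does not cover the effect of such an array. The number of arrays limits the precision. Where all arrays of 1 group were at background, a fold is a lower bound against the background level. Names come from the platform's annotation, which is old: 6104 probes have 1 symbol, 70 several and 20682 are not listed. Of several probes for 1 gene the brightest stands for it. The named genes are the 4 genes, direct partners of their products, the 2 genes with the smallest p in each list, any past the threshold, and the 3 closest profiles; others named were chosen after their values were seen. The 4 genes and the 15 lists were chosen with earlier results of these data known. Alternatives tried were other normalizations, floors and filters, array weights, a replicate block and leaving out each array.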

Additional observations from a re-analysis of the deposited data

How the results depend on the processing

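None of the 4 differences passed the threshold under any of the 14 alternatives. Of these, quantile normalization of the raw intensities repeats the main values and is no separate check. Lyz2 and Cd14 kept a positive sign in all, and Itgam and Cybb in all but 1, the fit without syngeneic 2, where they were -0.35 and -0.44. Leaving out 1 array at a time gave 0.75 to 1.25 for Lyz2, 0.59 to 1.84 for Cd14, -0.35 to 3.14 for Itgam and -0.44 to 4.53 for Cybb, and 0 to 91 probes past the threshold. The upper values of Itgam and Cybb are fitted against a signal below background and show only differences of at least 1.71 and 3.46. In fits with 1 syngeneic array left, that array is assumed to vary like the tolerant ones. The 6 probes called over all genes became 53 with median scaling and 81 without normalization, nearly all lower (53 and 80). They became 0 without the filter on dim probes, with array weights and with the replicate block, where 1759, 562 and 474 probes had an unadjusted p under 0.05. Median scaling and no normalization moved the median of all probes by -0.16 and -0.37. Relative to it, the differences of Lyz2, Cd14, Itgam and Cybb were 0.92, 1.09, 1.46 and 2.06 under both. Without normalization, and not set against that median, they were 0.55, 0.71, 1.08 and 1.69. With the replicate number as a block, which uses 4 arrays, the differences were 1.25, 1.18, 0.96 and 1.69. The numbers are not known to pair arrays: deviations of same-numbered arrays from their group means correlated at -0.10 and 0.02. List medians moved by less than the spread between arrays in 181 of 208 cases, those of the repeated fit included. The cause of the changes under other scalings was not tested. Signal over background limits Itgam on tolerant 1, which was 0.80 above the level, and both Itgam and Cybb on syngeneic 2.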
